A study of Mus musculus with 8 samples.

Results

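The regions described here are H3K4me3 peaks that were listed both in neurons derived from mouse otic progenitors and in the proliferating progenitors themselves. Their proliferating intervals were overlapped by no CHD4 or p300 peak of either state. They were chosen from the deposited peak lists as peaks of the proliferating H3K4me3 list that shared at least 1 bp with a peak of the neuron H3K4me3 list and none with the 2 CHD4 lists or the 2 p300 lists. The neuron H3K4me3 peaks were not held to this, and at 15 chosen regions the neuron peak overlapped CHD4 or p300. The rule was met by 3683 of the 7472 proliferating H3K4me3 peaks. It uses the measured peaks themselves, so stability between the states and the lack of CHD4 and p300 are the choice and not results. The natural comparison was the other 1846 stable H3K4me3 peaks, which were overlapped by CHD4 or p300 in at least 1 list.

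The cells were immortalized multipotent otic progenitors (iMOPs), a single mouse line with properties of inner ear progenitors. CUT&Tag maps an antibody's target by tethering a transposase to it, which inserts sequencing adapters into the DNA nearby. The neurons were derived from iMOPs in medium with 1 µM K03861, an inhibitor of cyclin-dependent kinases, and the proliferating cells were kept in 20 ng/ml bFGF. Both states were wild-type for the labels' genotype entry, and each antibody was profiled in 1 library of 500000 cells per state. IgG controls, 2 libraries of the series, were not used here, and the lists therefore have no background level to be set against. With 1 library per antibody and state there is no replicate check and no test between the states. Read depth is unknown, no source used here gives the scaling of the deposited signal, and fewer cells with the mark cannot be told apart from less mark per cell.

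H3K4me3 is deposited around the starts of active genes, mostly at promoters rich in CpG, by the SET1 and MLL methyltransferases. CHD4 is the ATPase of the NuRD remodelling and deacetylase complex, and p300 is an acetyltransferase found at enhancers and at many active promoters. Promoters of genes that every cell uses for energy, protein synthesis and protein turnover commonly carry H3K4me3 whatever the cell type. Many of them are known for short binding sites of ETS factors, NRF1, YY1 and the CCAAT-binding factor NF-Y close to the start.

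Promoters of this kind are shown first, because they carry the sequence features described further on. Each comes from a gene of cell maintenance at a peak without CHD4 or p300, and was taken as among the highest ranked in H3K4me3 that hold an ETS, NRF1 or CCAAT match in a stretch overlapping no annotated gene. The 150 bases just before the annotated start are given in the direction of transcription, from RefSeq on the build GRCm38.p6 (mm10 coordinates). Capitals mark CCGGAAG (ETS), GCGCATG (NRF1), AAGATGG (YY1) and CCAAT on either strand.
Uqcrh, chr4:116075071-116075220, minus strand: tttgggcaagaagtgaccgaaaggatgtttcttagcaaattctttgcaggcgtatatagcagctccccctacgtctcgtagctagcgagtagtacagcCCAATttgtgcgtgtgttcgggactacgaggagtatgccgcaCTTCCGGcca
Mars2, chr1:55237027-55237176, plus strand: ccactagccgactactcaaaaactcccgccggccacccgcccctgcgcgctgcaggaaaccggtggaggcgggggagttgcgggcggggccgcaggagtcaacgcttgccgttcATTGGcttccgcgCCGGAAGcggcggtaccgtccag
Nup50, chr15:84923278-84923427, plus strand: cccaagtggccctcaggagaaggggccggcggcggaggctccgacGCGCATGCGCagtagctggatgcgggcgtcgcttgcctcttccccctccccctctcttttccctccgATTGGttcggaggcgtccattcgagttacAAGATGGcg
Chmp5, chr4:40948403-40948552, plus strand: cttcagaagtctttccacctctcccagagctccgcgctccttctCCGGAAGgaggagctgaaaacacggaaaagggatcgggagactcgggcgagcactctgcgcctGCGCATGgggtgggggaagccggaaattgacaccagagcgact
Polr2j, chr5:136116541-136116690, plus strand: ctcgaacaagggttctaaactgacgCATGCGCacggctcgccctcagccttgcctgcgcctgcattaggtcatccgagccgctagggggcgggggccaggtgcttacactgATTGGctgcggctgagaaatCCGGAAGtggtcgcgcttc
Gtf3c1, chr7:125707689-125707838, minus strand: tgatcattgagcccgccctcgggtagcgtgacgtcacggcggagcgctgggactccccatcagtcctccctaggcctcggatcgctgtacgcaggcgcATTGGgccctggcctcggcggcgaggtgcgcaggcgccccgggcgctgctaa
Uqcrh encodes a subunit of respiratory complex III, Mars2 the mitochondrial methionyl-tRNA synthetase, Nup50 a nuclear pore protein, Chmp5 an ESCRT-III subunit, Polr2j a subunit of RNA polymerase II and Gtf3c1 a subunit of TFIIIC. The ETS match is centred 7 bp before the start of Uqcrh, 16 bp before that of Polr2j and 20 bp before that of Mars2. Nup50 holds NRF1 matches on both strands that overlap each other, and a YY1 match centred 6 bp before its start. Their H3K4me3 peaks were 6200 bp wide in neurons and 5200 bp in proliferating cells at Uqcrh, 6750 and 3300 bp at Mars2, and 5400 and 4450 bp at Nup50.

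Nearly all of the chosen peaks lay by a protein-coding gene, and most by a known start. A protein-coding gene lay at 3542 of the 3683 peaks (96.2%). For 2974 of them (80.7%) an annotated start was within 1 kb, and for 568 (15.4%) the gene had no annotated start in the table used and either end of the gene was within 1 kb, which may not be its start. These peaks covered 4302 distinct genes, which is 67.1% of the 6412 genes at any stable H3K4me3 peak and 19.7% of the 21883 protein-coding genes. A single gene lay at 2793 peaks, 2 genes at 712 and 3 or more at 37, with at most 5.

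A divergent pair, in which genes on opposite strands start within 1 kb of each other, lay at 440 of the chosen peaks (11.9%) and at 8.67% of the other stable peaks. At a member with 5 genes, chr19:6060251-6069600 in neurons and chr19:6055051-6069450 in proliferating cells, the peak covered Mrpl49 (mitochondrial ribosome), Fau (a ribosomal protein fused to a ubiquitin-like one), Znhit2, Vps51 (a vesicle tether) and Tm7sf2 (a sterol reductase). The median length of the genes was 26.5 kb at the chosen peaks, 18.3 kb at the other stable peaks and 17.2 kb over all protein-coding genes.

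No protein-coding gene lay at 141 of the chosen peaks. Of these, 64 were at the end of a non-coding gene or pseudogene, 72 were inside a coding gene and 5 were outside coding genes. An lncRNA gene lay at 52 of the 64, snoRNA genes at 8 peaks, tRNA genes at 5 and miRNA genes at 4, and some peaks held several kinds. A cluster of tRNA genes at chr3:96494001-96503800 had a neuron peak of 9800 bp, which was number 72 in its list by total signal, and a proliferating peak of 11700 bp, number 36 in its list. The lncRNA gene 5430416N02Rik was number 15 in neurons and number 186 in proliferating cells.

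The functions of the genes were read from 39 gene lists, and most of the genes at the chosen peaks were in none of them. The lists were defined by symbol patterns, so a few members share only a name with the rest. Genes of 26 lists of maintenance functions made up 14.1% of the 4302 genes at chosen peaks, against 8.39% of those at the other stable peaks. Of these lists' 1236 genes, 607 were at a chosen peak and 177 at another stable peak, so that 77.4% of the maintenance genes with stable H3K4me3 lacked CHD4 and p300 (95% interval 74.3% to 80.3%). The same share over all genes with stable H3K4me3 was 67.1%, and 23 of the 26 lists stood above it, though the intervals of most of them reach it. In 6 lists of developmental and neuronal genes, 18 of 230 genes were at a chosen peak and 59 at another stable peak, a share of 23.4% (14.5% to 34.4%). None of the 6 lists stood above 67.1%, but the Hox list, with 2 of 3 genes (66.7%), was about level with it. The Hox interval (9.43% to 99.2%) includes 67.1%. So do those of the proneural (11.8% to 88.2%) and the neuronal cytoskeleton and synapse lists (17.7% to 71.1%). CHD4 and p300 chose the peaks, so these shares describe how the rule divided stable H3K4me3 and are given with no test.

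**Figure D1:**
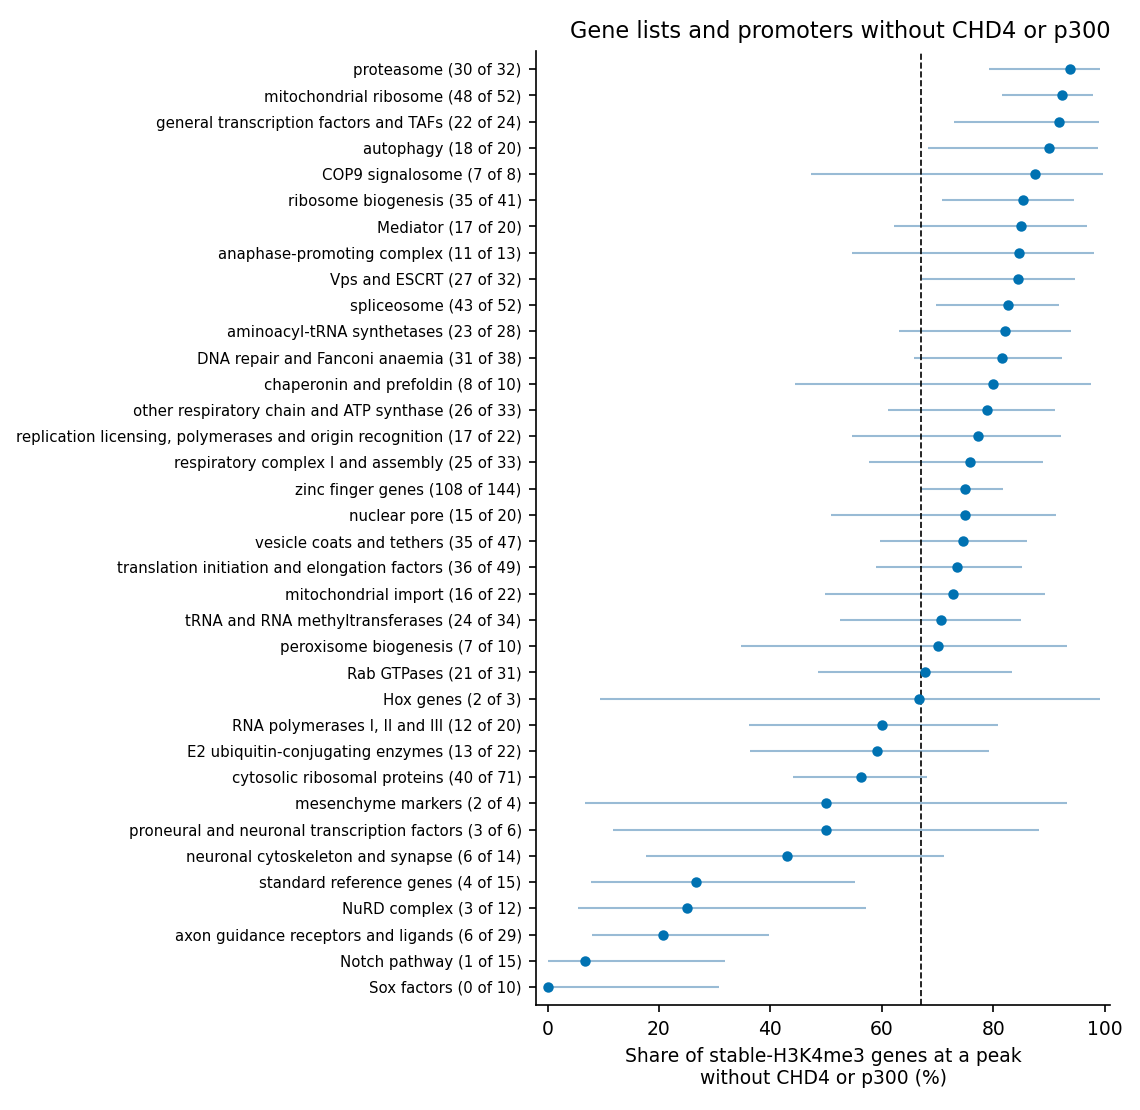
Share of each list's genes with stable H3K4me3 that lay at a peak without CHD4 or p300 (x axis, percent), for the lists with at least 3 such genes (y axis, with the counts). Points are shares, lines are exact 95% intervals for counting error only, and the dashed line is the 67.1% of all genes with stable H3K4me3. Proteasome and mitochondrial ribosome genes are at the top, and Notch pathway genes and Sox factors are at the bottom.

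Genes of the mitochondria were numerous at the chosen peaks. The mitochondrial ribosome, which makes the proteins encoded in mitochondrial DNA, had 48 of 78 genes at chosen peaks and 4 at other stable peaks (Mrpl34, Mrpl40, Mrpl41 and Mrps18b), a share of 92.3%. For respiratory complex I and its assembly factors the count was 25 of 49 genes, against 8 at other stable peaks, and for the other respiratory complexes and ATP synthase it was 26 of 61, against 7. Mitochondrial import had 16 of 31 genes at chosen peaks, Tomm20 and Timm23 among them, and 6 at other stable peaks, Tomm40 and Hspd1 among them. The peak at Gga3 and Mrps7 was 6300 bp wide in neurons and 6100 bp in proliferating cells, and that at Atp5pb and Wdr77 was 5600 and 5000 bp. Both were in the upper part of each list, as number 258 in neurons and 159 in proliferating cells for Mrps7, and 177 and 255 for Atp5pb.

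Genes of protein turnover were likewise mostly at chosen peaks. Of 51 proteasome genes, which encode the core, cap, activators and assembly factors of the main protease of the cell, 30 were at chosen peaks and 2 at other stable peaks, Psmb3 and Psme2 (93.8%). The COP9 signalosome, which removes NEDD8 from cullin ligases, had 7 of 10 genes at chosen peaks and 1 at another stable peak. The anaphase-promoting complex, the ubiquitin ligase of mitotic exit, had 11 of 16, against 2. Autophagy genes were at chosen peaks in 18 of 33 cases, against 2 (90%), and genes of Vps proteins and ESCRT subunits in 27 of 50, against 5. E2 ubiquitin-conjugating enzymes had 13 of 37 genes at chosen peaks and 9 at other stable peaks, a share of 59.1%. This lies below the 67.1% of all genes, but the interval of 36.4% to 79.3% includes it. The Psma7 peak was 6700 bp wide in neurons and 5650 bp in proliferating cells, and the peak of Vps26b, a retromer subunit, was 7550 and 6050 bp.

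The machinery of RNA and protein synthesis was divided more unevenly. General transcription factors and TAFs had 22 of 49 genes at chosen peaks and 2 at other stable peaks (91.7%), and Mediator, the bridge between activators and RNA polymerase II, had 17 of 33, against 3 (85%). The polymerases themselves had 12 of 28 genes at chosen peaks and 8 at other stable peaks. Their share of 60% was below that of all genes, but its interval of 36.1% to 80.9% includes 67.1%. Polr2b was at a chosen peak and Polr2a, which encodes the largest subunit of RNA polymerase II, at another stable peak. Spliceosome genes had 43 of 78 at chosen peaks, against 9 (82.7%), ribosome biogenesis 35 of 60, against 6 (85.4%), and aminoacyl-tRNA synthetases 23 of 37, against 5 (82.1%). Cytosolic ribosomal proteins were likewise below the share of all genes, with 40 of 79 genes at chosen peaks and 31 at other stable peaks (56.3%), but their interval of 44.0% to 68.1% includes 67.1%. Rpl5, Rps6 and Rpsa were at chosen peaks, while Rpl3, Rps2 and Rplp0 were at peaks with CHD4 or p300.

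The lists of genome upkeep, transport and zinc finger genes given here stood above the 67.1% of all genes, but their intervals reach it. So do those of several lists above, such as the aminoacyl-tRNA synthetases (63.1% to 93.9%). DNA repair genes were at chosen peaks in 31 of 66 cases and at other stable peaks in 7 (81.6%, interval 65.7% to 92.3%), with Atm and Parp1 among those at chosen peaks and Xrcc3 among those at other stable peaks. Replication genes had 17 of 44, against 5 (77.3%, interval 54.6% to 92.2%), and all 6 origin recognition genes Orc1 to Orc6 were at chosen peaks, while Pcna, Mcm4, Mcm6 and Mcm7 were at other stable peaks. Nuclear pore genes had 15 of 30, against 5 (75%, interval 50.9% to 91.3%), and vesicle coats and tethers 35 of 80, against 12 (74.5%, interval 59.7% to 86.1%). Zinc finger genes, many of which encode repressors of transposons, had 108 of 424 at chosen peaks and 36 at other stable peaks (75%, interval 67.1% to 81.8%), and most of the family had no stable H3K4me3 peak.

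Among standard reference genes most were at peaks with CHD4 or p300. Of 18 such genes, 4 were at chosen peaks and 11 at other stable peaks, and Gusb, Hprt and Ywhaz had no proliferating H3K4me3 peak. The 4 were B2m, with widths of 4000 bp in neurons and 4300 bp in proliferating cells, Pgk1 with 5800 bp in both states, Sdha with 3050 and 3150 bp, and Tbp with 6950 and 4650 bp. Actb and Gapdh were overlapped by CHD4 and p300 in both states, and Rplp0 and Tfrc by proliferating CHD4 alone. Genes of NuRD itself, the complex that holds CHD4, were at chosen peaks in 3 of 16 cases, Mta1, Mta2 and Mta3, and at other stable peaks in 9, Chd4, Hdac1, Hdac2 and Rbbp4 among them.

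Few developmental regulators were among the chosen promoters. No Sox gene of 19 was at a chosen peak, while 10 were at other stable peaks, Sox2, Sox4, Sox9 and Sox11 among them. With 0 of 10 Sox genes at stable peaks, the exact interval reaches up to 30.8%. Of 24 Notch pathway genes only Maml1, a coactivator, was at a chosen peak, against 14 at other stable peaks that include Notch1, Jag1 and Hes5. Of 72 axon guidance genes 6 were at chosen peaks (Dcc, Robo1, Robo2, Epha5, Efna1 and Plxnb1), against 23 at other stable peaks (20.7%). Markers of hair cells, glia and blood or endothelium had no gene at a chosen peak, of 21, 17 and 14 genes, and 1, 2 and 0 at other stable peaks. Of 17 mesenchyme markers, the transcription factor genes Pou3f4 and Tbx18 were at chosen peaks and Pdgfra and Vim at other stable peaks.

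Neuronal and axon guidance genes at chosen peaks covered a wide range of ranks. Dcc, the netrin receptor, had a peak of 7200 bp in neurons, number 212 in its list, and 6150 bp in proliferating cells, number 959. Robo1, a receptor for Slit, had 3200 bp in neurons and 2950 bp in proliferating cells, and was number 1252 in neurons and 1236 in proliferating cells. Robo2 had 5000 bp in neurons and 3950 bp in proliferating cells, and the ligand gene Efna1, number 4995 in neurons and 5927 in proliferating cells, was near the weak end of both lists. Prox1, a homeodomain transcription factor, had 6100 bp in neurons, number 324 in its list, and 5050 bp in proliferating cells, number 558. Elavl2, a neuronal RNA-binding protein, had 7700 bp in neurons and 3650 bp in proliferating cells, a ratio of 2.11. Elavl4, its relative, had 5300 bp in neurons and 4000 bp in proliferating cells.

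The chosen peaks were of moderate width in both states. Their median width was 4050 bp in neurons and 3600 bp in proliferating cells, and the central 90% ran to 7000 bp in neurons, starting at 2405 bp, and to 6095 bp in proliferating cells, starting at 2350 bp. The extremes were 1400 and 21950 bp in neurons, and 1550 and 16400 bp in proliferating cells. The other stable peaks had medians of 5050 bp in neurons and 4850 bp in proliferating cells. A wide peak is overlapped more readily by another list, and the share of stable peaks without CHD4 or p300 was 87.2% among those of 1550 to 3200 bp in proliferating cells, 78.1% from 3250 to 3900 bp, 63.8% from 3950 to 4950 bp and 36.7% from 5000 bp up. Typical members were Nup107, a nuclear pore scaffold protein, and Cuedc2, each 4050 bp in neurons and 3600 bp in proliferating cells.

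**Figure D2:**
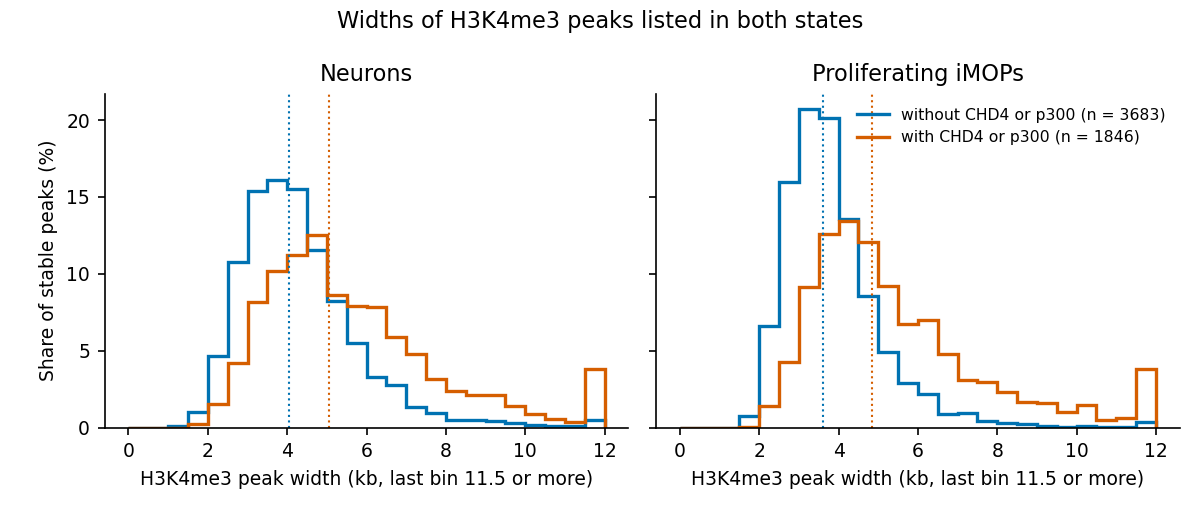
Width of stable H3K4me3 peaks (x axis, kb, in bins of 500 bp with wider peaks in the last bin) and share of peaks (y axis, percent) in neurons, left, and proliferating iMOPs, right. The 3683 peaks without CHD4 or p300 and the 1846 with them are drawn apart, and dotted lines are their medians. Peaks without CHD4 or p300 have the lower median in both states, 4050 against 5050 bp in neurons and 3600 against 4850 bp in proliferating cells.

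The leaning to maintenance genes was seen within most of these width bands. In the widest band 49.0% of maintenance genes with stable H3K4me3 were at chosen peaks, against 37.1% of all genes, and in the 3950 to 4950 bp band 78.7%, against 64.9%. In the narrowest band the shares were 91.4% and 87.9%. Developmental and neuronal genes were mostly in the widest band, where 7 of 51 (13.7%) were at chosen peaks.

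Between the states the chosen peaks were mostly similar in width, with a lean to wider peaks in neurons. The median ratio of neuron to proliferating width was 1.087 (95% interval 1.078 to 1.095), against 1.022 for the other stable peaks. Widths differed by no more than 1.2-fold at 2009 peaks (54.5%), and both edges were identical at 34. The neuron peak was the wider at 2384, the narrower at 1181 and equal at 118. At least 1.5-fold wider in neurons were 421 members (11.4%), close to the 10.5% of all stable peaks, and at least 1.5-fold narrower were 112 (3.04%), against 4.3% of all stable peaks. In the narrowest band the median ratio was 1.161 for the chosen peaks and 1.099 for the others, and in the widest band it was 0.974 for the chosen peaks and 0.984 for the others.

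The largest ratios came from neuron peaks that joined neighbours. At Ppan, a ribosome biogenesis factor, the neuron peak was 12750 bp and the proliferating peak 1950 bp, a ratio of 6.538, but the neuron peak also covered a second proliferating peak and overlapped CHD4 or p300. The next 5, at Ssna1 and Anapc2, Cyb561d2 and Nprl2, Pole3, Lrrc14 and Lrrc24, and Grik5, likewise each spanned 2 proliferating peaks. The neuron peaks at Ssna1 and Anapc2 and at Lrrc14 and Lrrc24 also overlapped CHD4 or p300, as did 11 of the 421 wider members in all. A joined neuron peak was found at 43 of the 421 wider members. Without members with joined peaks 378 of 3639 remained wider (10.4%, against 9.45% of all stable peaks treated likewise). Among the members whose neuron peak covered a single proliferating peak, the largest ratios were 3.061 at Lss, lanosterol synthase of sterol synthesis, and 3 at Iars2, the mitochondrial isoleucyl-tRNA synthetase. The Lss peak was 7500 bp in neurons and 2450 bp in proliferating cells, and the Iars2 peak was 7950 and 2650 bp. Creb1, the cAMP-responsive transcription factor, had 7400 bp in neurons and 2700 bp in proliferating cells. These genes without joined peaks were picked after their values were seen.

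Narrower peaks in neurons were fewer and had smaller ratios. The lowest ratio, 0.381, was at Miga2, a mitochondrial fusion protein, with 2250 bp in neurons and 5900 bp in proliferating cells. Hivep1, a zinc finger factor, had 2050 bp in neurons and 5300 bp in proliferating cells, and Spast, the microtubule-severing protein spastin, had 2500 and 5800 bp. Zeb2, a repressor of epithelial genes and a regulator of neural development, had among the widest proliferating peaks, 15750 bp, with 10750 bp in neurons. Arid1b, a subunit of the BAF remodelling complex, had 6300 bp in neurons and 13350 bp in proliferating cells.

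The difference in width lay mainly on the side of the gene body. For 1976 members with a single gene and a single known start, the neuron peak reached a median of 1194 bp upstream and 2634 bp downstream of the start, and the proliferating peak 1292 bp upstream and 2154 bp downstream. The downstream edge was farther out in neurons at 71.2% of them, by a median of 300 bp over all 1976, and the upstream edge at 35.8%, with a median shift of -50 bp. The highest signal lay a median of 203 bp downstream of the start in neurons and 108 bp downstream in proliferating cells. At 3000 bp downstream, 37.4% of the neuron peaks and 17.2% of the proliferating peaks covered the position. The other stable peaks leaned the same way, with the downstream edge farther out in neurons at 63.5% and the upstream edge at 29.7% of 893.

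**Figure D3:**
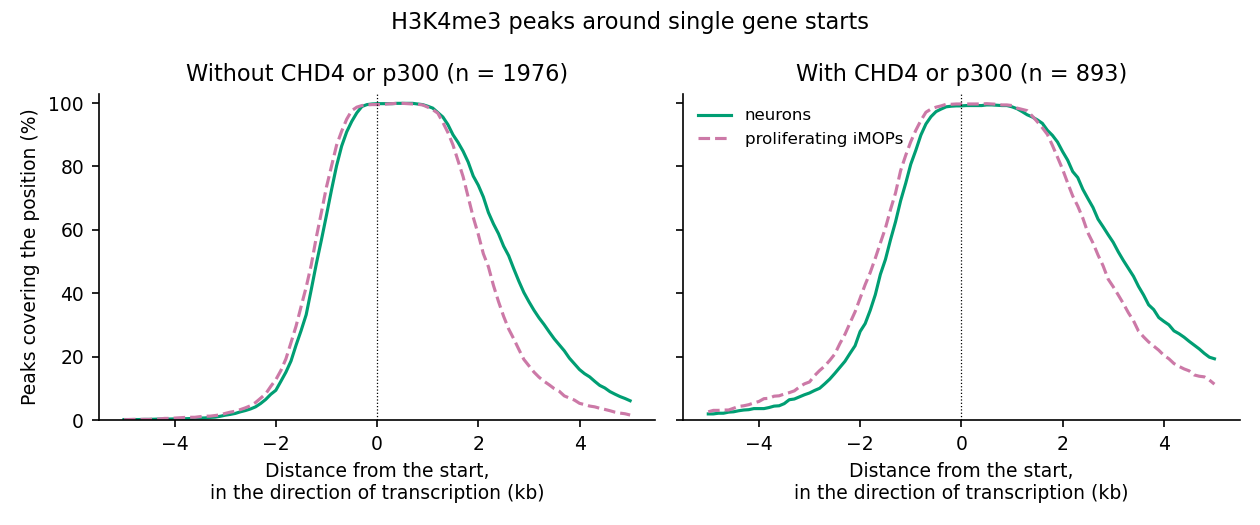
Share of H3K4me3 peaks that cover each position (y axis, percent) around a gene's start (x axis, kb, positive in the direction of transcription), for stable peaks without CHD4 or p300, left, and with them, right, at single gene starts. Solid lines are neurons and dashed lines proliferating iMOPs. In both panels the neuron line lies above the proliferating line from 2 kb downstream onward and below it at 1 kb upstream.

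The position of the strongest signal differed little between the states. In 89.5% of the chosen peaks the highest signal of the 2 states lay within 500 bp, against 77.0% of the other stable peaks, and in 43.0% it lay in the same step of 50 bp, against 33.8%. The chosen peaks are narrower than the others, which leaves less room for a shift, and the part of width in this difference was not tested.

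By total signal, the authors' summed value over a peak, the chosen peaks stood below the middle of the stable peaks in both states. Total signal grows with width, but the chosen peaks also had the lower median list percentile within each width band, as given below. Among the 5529 stable peaks, where 100 is the strongest, their median percentile was 41.9 in neurons and 37.07 in proliferating cells, and that of the other stable peaks was 69.2 in neurons and 76.85 in proliferating cells. The percentile was higher in neurons at 58.4% of the chosen peaks, with a median difference of 2.87 points (95% interval 2.36 to 3.46). It was higher in neurons by at least 20 points at 576 members (15.6%, against 12% of all stable peaks) and lower by at least 20 points at 267 (7.25%, against 12.5%). Percentiles within a fixed set balance out, so the other stable peaks leaned the opposite way, with a median difference of -4.61 points. The counts turn round in the whole lists of unequal length, where 217 members (5.89%, against 4.63% of all stable peaks) were higher in neurons by at least 20 points of total signal and 813 (22.1%, against 25.4%) were lower. By highest signal in the whole lists, 453 (12.3%, against 10.3%) were higher in neurons and 676 (18.4%, against 24.3%) were lower.

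**Figure D4:**
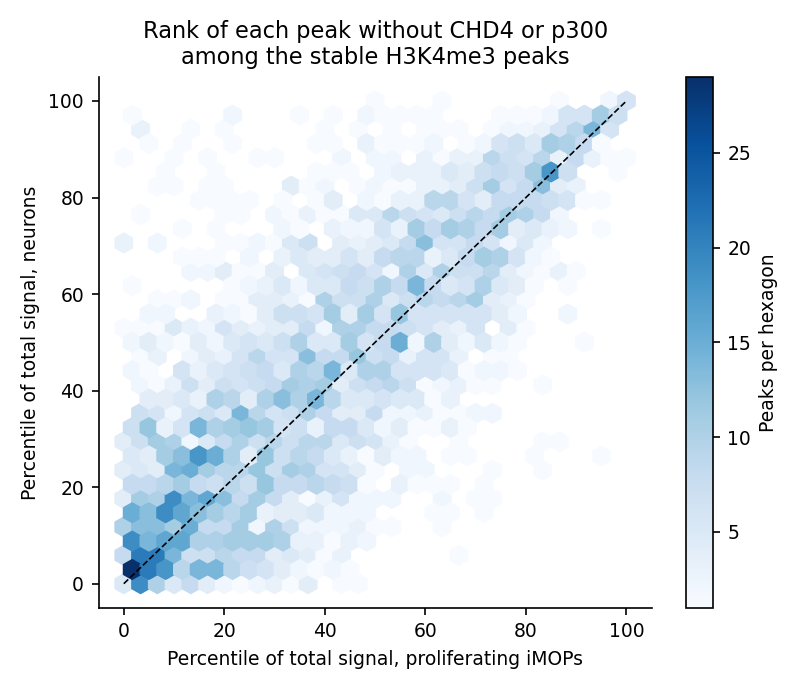
Percentile of total signal among the 5529 stable H3K4me3 peaks in proliferating iMOPs (x axis) and in neurons (y axis) for the 3683 peaks without CHD4 or p300. Shading counts peaks per hexagon, and the dashed line marks equal percentiles. Most peaks lie near the line, with 576 at least 20 points above it and 267 at least 20 points below it, counts that turn round with percentiles of the whole lists (217 and 813).

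Within the whole lists, which differ in length, the median percentile of the chosen peaks was 43.08 of the 5625 neuron peaks and 51.68 of the 7472 proliferating peaks. By highest signal, which depends less on width, the medians were 51.42 in neurons and 55.96 in proliferating cells, and those of the other stable peaks 49.7 in neurons and 70.05 in proliferating cells. Chosen peaks make up 65.2% of the neuron list and 49.3% of the proliferating list, which by itself holds their medians near the middle. Against the other stable peaks they ranked about level in height in neurons and lower in proliferating cells. The correlation of ranks between the states over the members was 0.75 for total signal, 0.73 for highest signal and 0.63 for width (Spearman's rho over 3683 peaks that share the 2 libraries, given as a description).

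The chosen peaks were scarce among the strongest by total signal, which grows with width. Within each width band their median list percentile was also below that of the other stable peaks. In the narrowest band it was 28.6 against 44.6 in neurons and 41 against 67.6 in proliferating cells. In the widest band it was 68.6 against 82.2 in neurons and 68.9 against 89.4 in proliferating cells. The cause was not tested. The chosen peaks made up 65.2% of the neuron list and 49.3% of the proliferating list, but 17 of the 100 strongest peaks by total signal in neurons and 9 of 100 in proliferating cells. Of the 1000 strongest they were 370 in neurons and 233 in proliferating cells. In the upper 20% of both lists were 291 members (7.9%, against 34.4% of the other stable peaks), and in the lower 20% of both lists 236 (6.41%, against 0.433%). Among the few strong ones, Zfp687, a zinc finger protein, was the highest, as number 6 in neurons with 10800 bp (chr3:95006751-95017550) and number 4 in proliferating cells with 7350 bp (chr3:95010001-95017350). The peak at Rhof and Setd1b, the second a subunit of a SET1 methyltransferase complex that deposits this mark, was number 20 in neurons and 28 in proliferating cells, though its neuron peak overlapped CHD4 or p300. Sin3a, the scaffold of a histone deacetylase complex other than NuRD, was number 57 in neurons and 17 in proliferating cells, and Mex3a, an RNA-binding protein, number 11 in neurons and 81 in proliferating cells. Sp8, a zinc finger factor of limb and neural development, had 15650 bp in neurons and 15500 bp in proliferating cells, its neuron peak spanning 2 proliferating peaks.

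Among single members, the largest differences in list percentile again included joined peaks. Hoxa4, a Hox factor gene, had 21950 bp in neurons, at percentile 93.6, and 7050 bp in proliferating cells, at percentile 15.7, and its neuron peak spanned 2 proliferating peaks. Without such joining, Vps37b, an ESCRT-I subunit, was at percentile 71.4 in neurons with 5450 bp and at 0.5 in proliferating cells with 4000 bp. Tspyl4 was at 72.5 in neurons and 3.4 in proliferating cells. In the other direction, the peak at Klc4, Mrpl2 and Cul7 was at 26.6 in neurons with 5100 bp and at 96.3 in proliferating cells with 7850 bp, and that of Crebrf was at 6.2 in neurons and 74.8 in proliferating cells although its widths were 2150 and 2350 bp. Signal and width could thus differ between the states separately.

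The promoters at the chosen peaks were rich in CpG. Over 300 bases, from 250 before to 50 after the start, 3526 of their genes had a promoter sequence in RefSeq, with a median GC content of 63.7%, against 64.7% for 1717 promoters at the other stable peaks and 56.7% for all 17491. The ratio of observed to expected CpG had a median of 0.86, against 0.817 at the other stable peaks and 0.586 over all promoters, and it reached 0.6 in 89.8%, against 84.4% and 49.0%.

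Against the other stable peaks, ETS matches differed most in frequency among 10 short motifs. CCGGAAG was present on either strand in 919 of 3526 promoters (26.1%), against 13.8% at the other stable peaks and 12% of all promoters. It was also more frequent in each width band, at 27.6% against 19.3% in the narrowest band and 23.6% against 14.4% in the widest. Among maintenance genes it was present in 38.0% of promoters at chosen peaks, 28.1% at the other stable peaks and 32.2% of all, and among the remaining genes in 24.1%, 12.5% and 10.8%. The matches lay near the start, with 5.98% of the promoters holding 1 in the 25 bp before it and 5.98% in the 25 bp after it, against 0.652% in the bin farthest upstream. By function, ETS matches were in 14 of 24 proteasome promoters at chosen peaks, 7 of 11 for the anaphase-promoting complex and 14 of 42 for the mitochondrial ribosome, but in only 3 of 20 for complex I, 3 of 14 for autophagy and 4 of 18 for Rab genes.

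**Figure D5:**
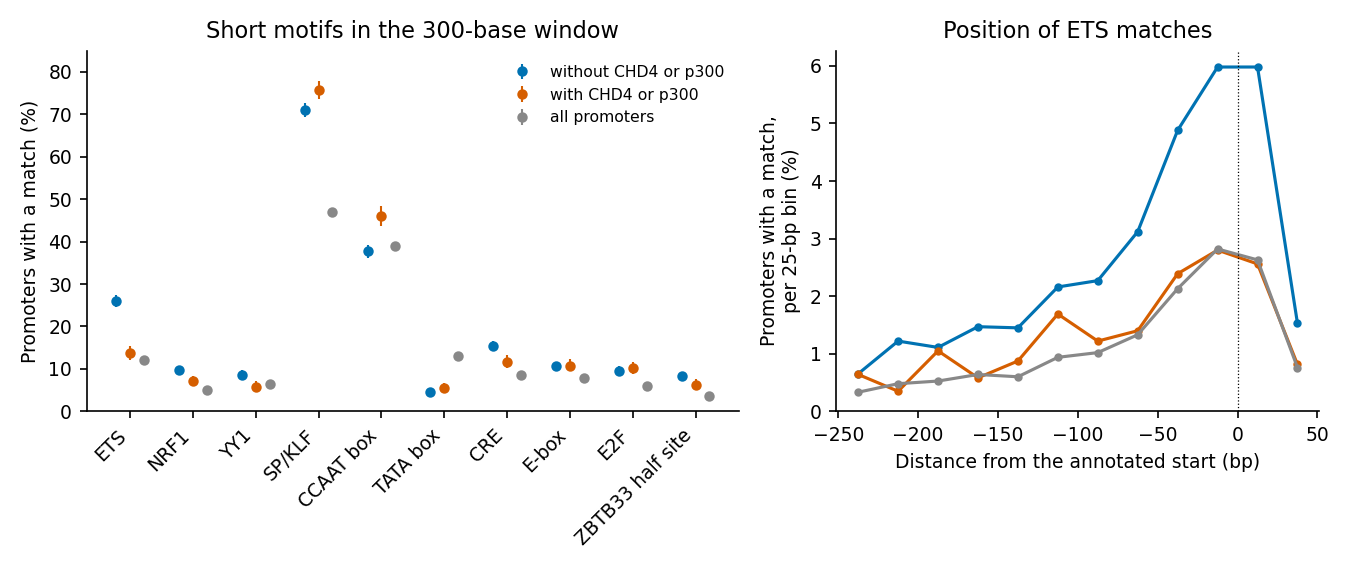
Left, share of promoters with each short motif in 300 bases around the start (y axis, percent), for stable peaks without CHD4 or p300, with them, and all 17491 promoters, with exact 95% intervals for counting error. Right, share with an ETS match per 25-bp bin (y axis, percent) by distance from the start (x axis, bp). ETS matches are in 26.1% of promoters at peaks without CHD4 or p300, against 13.8% with them, and lie close to the start.

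The other motifs differed less from the other stable peaks, although against all promoters the ratio was larger for TCTCGCG and the difference in points larger for GGGCGG than for ETS. GCGCATG (NRF1) was in 9.67% of promoters at chosen peaks, against 7.05% at the other stable peaks and 4.95% of all promoters, and it was in 6 of 11 nuclear pore promoters. AAGATGG (YY1) was in 8.68%, against 5.82% and 6.41%, TGACGT (the cAMP response element) in 15.4%, against 11.7% and 8.67%, and TCTCGCG (a core of sites for ZBTB33) in 8.25%, against 6.29% and 3.67%. Among maintenance genes none of these was more frequent at chosen than at other stable peaks. The shares were 11.7% against 13.7% for NRF1, 11.3% against 13% for YY1, 17.7% against 17.8% for TGACGT and 10.9% against 13% for TCTCGCG. Among the remaining genes they were 9.34% against 6.43%, 8.25% against 5.16%, 15% against 11.1% and 7.82% against 5.67%. CCAAT was less frequent at chosen peaks, at 37.7% against 46.1% at the other stable peaks and 39% of all promoters, and GGGCGG (SP and KLF factors) was in 71.1%, against 75.8% and 46.9%. TATAAA was in 4.45%, against 5.42% and 13.1%. CACGTG (E-box) was in 10.6%, against 10.8% and 7.83%, and GCGGGAA (E2F) in 9.59%, against 10.1% and 6.06%, with overlapping intervals between the stable sets for both. A match is a stretch of letters and not a measured site, and promoters of divergent pairs share sequence.

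By median rank of highest signal, members with an ETS, NRF1 or CCAAT match had taller peaks at similar widths, but not all motifs went this way. Where a promoter held CCGGAAG, the median percentile of highest signal was 59.3 in neurons and 61.8 in proliferating cells over 781 peaks. Over the 2273 peaks counted as without it, the medians were 50.4 in neurons and 56.0 in proliferating cells. The groups with and without a match share some peaks, as their counts together exceed the 2974 peaks with a known start. For NRF1 the medians were 56.6 in neurons and 65.7 in proliferating cells with a match, and 51.7 and 56.5 without, and for CCAAT they were 54.9 and 63.0 with a match, and 51.7 and 54.2 without. The median widths were 4000 bp in neurons and 3550 bp in proliferating cells with an ETS match, and 4050 and 3600 bp in the group without. By total signal, ETS carriers were at 45.1 in neurons and 51.9 in proliferating cells, against 44.5 and 53.3 without a match. In highest signal, YY1 and TGACGT carriers were also higher in both states, and E2F and E-box carriers lower in both. GGGCGG carriers were lower in neurons (50.9 against 58), TATAAA carriers in proliferating cells, and TCTCGCG carriers were mixed. These medians are given without intervals.

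The boundary of the rule was clear on the H3K4me3 side and narrower on the other. The smallest overlap of a member with neuron H3K4me3 was 1400 bp, at Rpap2 and Glmn and at Evi5, and the nearest peak without CHD4 or p300 that had no overlap, at Gabarap, was 600 bp from neuron H3K4me3. On the CHD4 and p300 side, the member at Ppp4c abutted such a peak with a gap of 0 bp, and that at Enkd1 was 50 bp away, while St6galnac2, with 100 bp of overlap, and Ppp5c, with 200 bp, were left out. The median member was 102 kb from any CHD4 or p300 peak, and 39 were within 1 kb. Of the 1846 stable peaks left out, neuron CHD4 overlapped 1218 and proliferating CHD4 1630, neuron p300 131 and proliferating p300 1139. The neuron p300 list, with 965 peaks, was the shortest, and a promoter not in a list can still carry CHD4 or p300 below its threshold.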

How the data were processed

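Per the labels, CUT&Tag libraries for CHD4, H3K4me3 and p300 were made from both states, and Bowtie2, deepTools, SEACR and mm10 are named, without versions, in the submitters' processing notes. The 6 lists deposited by the authors give each peak's position, its total signal and its highest signal, in an unstated scale and in steps of 50 bp. Signal was used only for ranks within a list. Depth is unknown, and whether a list pools libraries is not stated in the labels.

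Overlap meant at least 1 bp, and each member was paired with the neuron peak of largest overlap. Genes and promoters came from RefSeq tables of GRCm38.p6. A known start (17491 of 21883 genes) or, without one, either annotated end within 1 kb assigned a gene. Where a gene had several starts, that nearest the highest signal gave its promoter. Motifs were searched on both strands. GGGCGG and GCGGGAA can overlap each other. Intervals are exact (Clopper-Pearson) 95% intervals for shares, and order-statistic intervals for medians, of counting error only. Peaks and genes are not replicates, so there are no p-values.

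The members and lists were chosen with earlier results of these data known. Genes were named by a rule: the widest, the highest in percentile, the largest and smallest differences in width and percentile, the most typical, the 2 highest of each list, reference genes, and those at the rule's edges. Other genes named were chosen after their values were seen. Overlaps and motifs were tested on simulated data. Tools were Python 3.11.15, numpy 2.4.6, pandas 2.3.3, SciPy 1.17.1 and matplotlib 3.10.9.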

Additional observations from a re-analysis of the deposited data

How the results depend on the processing

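The median difference in list percentile, neurons minus proliferating cells, was -6.64 points and reversed to 2.87 when ranked among the stable peaks alone, where the sets have equal length. It was -7.35 with the stronger 50% of the CHD4 and p300 lists, -1.18 with the stronger 50% of the H3K4me3 lists and -1.65 by highest signal. With the stronger 50% of the H3K4me3 lists there were fewer peaks by construction, 1342 members with 1750 genes, of which 164 were at least 1.5-fold wider and 37 at least 1.5-fold narrower in neurons. At a 2-fold ratio 91 were wider and 24 narrower. The excess of divergent pairs over the other stable peaks was 3.28 percentage points, 1.2 from 3250 to 3900 bp and 5.97 from 5000 bp up; the cause was not tested. Leaving out neuron peaks that span several proliferating peaks, chosen after seeing the data, left 378 wider. Under the other settings the members numbered 3644 to 4630 and their genes 4253 to 5387, and the same 5 of 10 motifs were more frequent with the forward strand alone or the upstream bases alone, with ETS ratios of 1.83 and 1.76 against 1.89. No paired analysis was possible because each antibody had 1 library per state. Depth and thresholds of the lists are unknown, so a peak not listed may be a weak one.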
